A study of Arabidopsis thaliana with 6 samples.

Results

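The *AHA* genes of Arabidopsis encode proton pumps (H+-ATPases) known mainly from the plasma membrane. Here 9 of them (*AHA1*, *AHA2*, *AHA3*, *AHA4*, *AHA7*, *AHA8*, *AHA9*, *AHA10* and *AHA11*) were followed out of 33557 genes in the tables. They were taken from the tables by gene identifier. The data are RNA-seq of whole roots of 10-day-old plants grown on agar with 10 mM nitrate as the nitrogen source, with 3 libraries of wild-type plants (WT, Col ecotype) and 3 of *CEPDL2ox* plants. *CEPDL2ox* plants carry the coding sequence of *CEPDL2*, a mobile glutaredoxin-like polypeptide made in leaf phloem, behind the CaMV 35S promoter of the pBI121 vector. Both groups had the same age, tissue and medium, and the WT plants carried no *CEPDL2* transgene. The 35S promoter is active in most tissues, roots included, whereas *CEPDL2* is normally expressed mainly in the shoot. How many transgenic lines entered the libraries, and which, is not given in the sources used here.

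A plasma membrane H+-ATPase spends ATP to move protons out of the cell. The resulting voltage and pH gradient drives the uptake of nutrients by cotransporters, and the high-affinity nitrate transporters of the root are among those that carry nitrate inward together with protons. The pump holds itself back through its C-terminal tail. Phosphorylation of the threonine next to the last residue lets a 14-3-3 protein bind the tail and release the pump, and PP2C-D phosphatases remove that phosphate.

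The ends of the coding sequences are shown because this regulatory threonine lies there. In the reference annotation (RefSeq, TAIR10.1), the codon before the last was a threonine codon in all 9 genes. The last 36 coding bases of the 3 genes that rose in *CEPDL2ox* roots and of *AHA11*, which did not pass the test, follow 5′ to 3′ with the stop codon at the end and the threonine codon in capitals. They lie in the last coding exon at chr2:8227233-8227268 (plus strand) for *AHA1*, chr4:14770820-14770855 (minus strand) for *AHA2*, chr3:22303474-22303509 (plus strand) for *AHA7* and chr5:25164922-25164957 (plus strand) for *AHA11*.
AHA1: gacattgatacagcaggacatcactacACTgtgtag
AHA2: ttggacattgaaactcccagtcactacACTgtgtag
AHA7: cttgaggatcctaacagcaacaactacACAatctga
AHA11: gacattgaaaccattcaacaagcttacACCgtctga
The codon after the capitals, which is the last before the stop, was a valine codon in 7 of the 9 genes and another codon in *AHA7* and *AHA9*.

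*AHA1* and *AHA2* are close copies, and their coding sequences were identical at 89.18% of aligned positions. The next closest pair was *AHA4* and *AHA11* at 87.57%, and *AHA1* and *AHA7* were identical at 69.56%. Since the reads were 75 bases long, the transcript with the longest complete coding sequence of each gene was cut into all its windows of that length. These windows were searched for, without gaps, in the transcripts chosen for the other genes. Other transcripts of the same gene were not cut. No window of these *AHA* transcripts occurred without a mismatch in another one. With at most 2 mismatches, 76 of 3474 windows of *AHA1* (2.19%) and 76 of 3265 windows of *AHA2* (2.33%) matched the other gene, and none of the remaining members shared any. One such pair of windows within a coding exon, at chr2:8223178-8223252 (plus strand) and chr4:14774791-14774865 (minus strand), is printed with its 2 differing bases in capitals.
AHA1: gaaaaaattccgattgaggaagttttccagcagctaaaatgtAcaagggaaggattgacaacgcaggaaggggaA
AHA2: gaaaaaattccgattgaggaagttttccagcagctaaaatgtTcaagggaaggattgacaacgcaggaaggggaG
Outside these 76 windows, every window differed by more than 2 bases between the genes. How the mapping placed reads from near-identical windows is not given in the sources used here.

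The tables give FPKM, fragments normalized for transcript length and number of mapped reads, so levels can be compared between genes. Comparison between libraries rests on their scaling, which is not given in the sources used here. Results under other scalings are therefore given at the end. Depth was estimated at 5884000 to 6273000 reads for WT and 5139000 to 5523000 reads for *CEPDL2ox*, from the value that a single read takes in each table. *CEPDL2* itself was between 3.27 and 9.45 FPKM in WT and between 7948 and 8838 FPKM in *CEPDL2ox*, as labelled. One library stood apart: the summed FPKM of 8 genes of green aerial tissue was 3177 in WT replicate 1 and between 109 and 302 in the other 5 libraries. The most abundant of them, *RBCS1A*, a subunit of Rubisco, had 1276 FPKM there, and none of the 8 passed the test. Results for the *AHA* genes are therefore also given without WT replicate 1. A single metallothionein gene, *MT1A*, made up 8.49% to 9.03% of all FPKM in WT and 11.7% to 13.96% in *CEPDL2ox*. Expression was tested with limma on log2(FPKM + 1) over 19597 genes whose mean reached 1 FPKM, and a fold change on this scale understates the change of genes near 1 FPKM. Replicates are separate samples by their labels, and the p-values measure the spread between these samples. In whole roots, more cells of a type and more RNA per cell cannot be told apart. The paper reports that *CEPDL2ox* plants have shorter roots and smaller rosettes than WT plants. Whether the cell make-up of the roots differed was not tested.

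The most abundant pumps of the root rose in *CEPDL2ox*. *AHA2* and *AHA1* rose by 0.69 and 0.65 on the log2 scale, *AHA7* rose by 1.05, and no member passed the test in the other direction. Of the 8 *AHA* genes tested, 3 were higher with an adjusted p under 0.05 (limma, Benjamini-Hochberg), where 3.71% of all genes tested were higher by that rule. None of the 8 was lower, where 2.00% of all genes tested were. When the log2 fold change also had to exceed 1, 1 of the 8 was higher (*AHA7*), against 1.16% of all genes tested. The median log2 fold change of the 8 genes was 0.24, and that of all genes tested was -0.03.

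**Figure D1:**
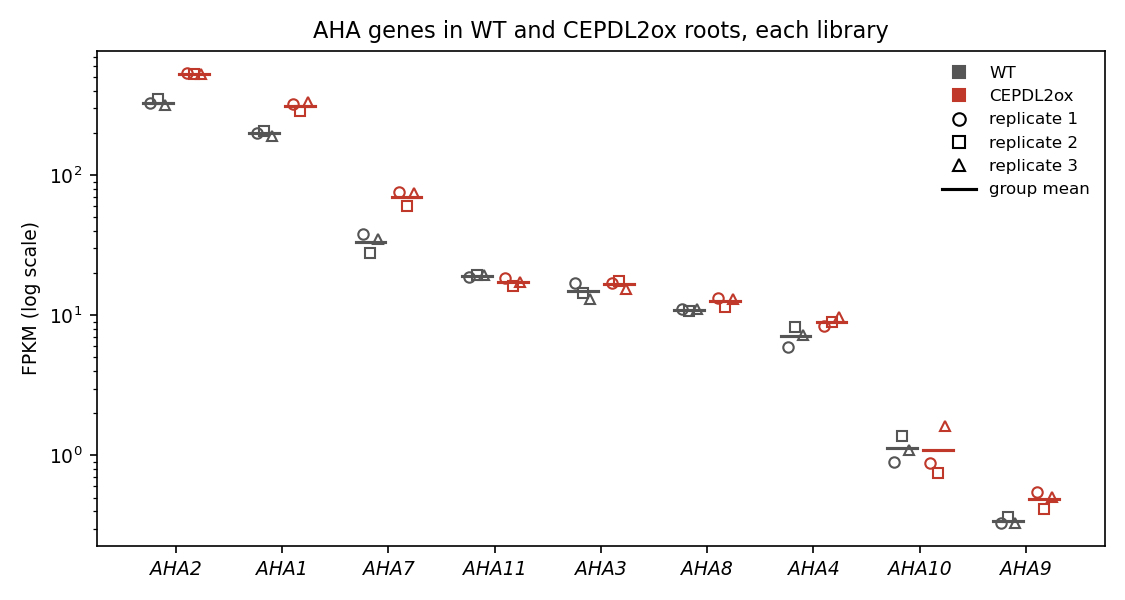
FPKM of each *AHA* gene (log axis) in every library, WT in grey and *CEPDL2ox* in red, with the marker shape giving the replicate number and the bar the group mean of 3 libraries. *AHA2*, *AHA1* and *AHA7* lie clearly higher in all 3 *CEPDL2ox* libraries (for *AHA7*, 60.4 FPKM or more against 37.9 FPKM or less), while *AHA10* overlaps between the groups.

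*AHA2* (AT4G30190, chromosome 4 of TAIR10, 14770499 to 14776058) is the main proton pump of the root. It had 326, 347 and 314 FPKM in WT replicates 1, 2 and 3 and 533, 527 and 529 FPKM in the *CEPDL2ox* replicates. The lowest *CEPDL2ox* library was far above the highest WT library, and the 3 *CEPDL2ox* libraries were nearly equal. The means were 329 ± 16.8 FPKM (SD, n = 3) and 529.9 ± 3.25 FPKM (SD, n = 3), a ratio of 1.61. On the log2 scale this was a change of 0.69 (95% interval 0.53 to 0.84, standard error 0.07, adjusted p = 0.00189 from limma). Without WT replicate 1 it was 0.68 (adjusted p = 0.0161 from limma).

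*AHA1* (AT2G18960, chromosome 2, 8221631 to 8227622) is expressed throughout the plant, and at least one of *AHA1* and *AHA2* is needed for the embryo to live. It had 201, 206 and 189 FPKM in the WT replicates and 323, 286 and 331 FPKM in the *CEPDL2ox* replicates. The groups did not overlap here either, and *CEPDL2ox* replicate 2 was the lowest of its group. The means were 199 ± 8.69 FPKM (SD, n = 3) and 313 ± 23.7 FPKM (SD, n = 3), a ratio of 1.58. On the log2 scale it changed by 0.65 (95% interval 0.47 to 0.84, standard error 0.08, adjusted p = 0.0048 from limma), and without WT replicate 1 it was 0.66 (adjusted p = 0.0263 from limma). By size alone these changes were not among the largest in the data. *AHA2* ranked 717 and *AHA1* 798 among the genes tested by log2 fold change. Both are high in abundance, with 98.28% and 96.76% of the genes tested at a lower mean FPKM.

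*AHA7* (AT3G60330, chromosome 3, 22298367 to 22303673) is a root pump with a known part in root hair formation. It had 37.863, 27.66 and 34.984 FPKM in the WT replicates and 75.445, 60.435 and 75.003 FPKM in the *CEPDL2ox* replicates. Replicate 2 was the lowest library in both groups, and every *CEPDL2ox* library was still above every WT library. The means were 33.5 ± 5.26 FPKM (SD, n = 3) and 70.3 ± 8.54 FPKM (SD, n = 3), a ratio of 2.098. Its log2 change was 1.05 (95% interval 0.73 to 1.37, standard error 0.14, adjusted p = 0.00605 from limma) and ranked 317 among the genes tested. It lay close to the fold threshold of 1. It was 0.92 without WT replicate 2, 0.998 without *CEPDL2ox* replicate 1, 0.96 with libraries scaled to the same summed FPKM, and 1.14 without WT replicate 1 (adjusted p = 0.0178, 0.0439, 0.00913 and 0.0176 from limma). With no filter on low values, over all genes of the tables, its adjusted p was 0.0776 (limma) and it was no longer called. For each of *AHA1*, *AHA2* and *AHA7*, an exact two-sided permutation test gave p = 0.1, the smallest that 3 libraries against 3 allow.

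None of the remaining 5 tested genes passed the test. Together with the 3 that passed, 6 of the 8 tested genes had groups that did not overlap, where 29.9% of all genes tested had such groups in either direction. *AHA4*, a pump of the root endodermis, had 5.98, 8.27 and 7.25 FPKM in WT and 8.32, 8.89 and 9.65 FPKM in *CEPDL2ox*. Its groups were next to each other without overlap, and its log2 fold change was 0.29 (95% interval -0.03 to 0.62, adjusted p = 0.252 from limma). *AHA8*, known mainly from pollen, had 11.1, 10.6 and 11.1 FPKM in WT and 13.3, 11.5 and 13.1 FPKM in *CEPDL2ox*, with a log2 fold change of 0.19 (95% interval -0.04 to 0.43, adjusted p = 0.303 from limma). The lowest *CEPDL2ox* value of *AHA8* was barely above the highest WT value. *AHA3*, the pump of phloem companion cells, had 17.0, 14.3 and 13.0 FPKM in WT and 17.1, 17.4 and 15.3 FPKM in *CEPDL2ox*. These groups overlapped, and its log2 fold change was 0.16 (95% interval -0.11 to 0.44, adjusted p = 0.45 from limma). Without WT replicate 1, the log2 fold change was 0.26 for *AHA3*, 0.18 for *AHA4* and 0.20 for *AHA8* (adjusted p = 0.286, 0.505 and 0.418 from limma). Leaving out each library in turn moved it between 0.08 and 0.26 for *AHA3*, lowest without WT replicate 3, and between 0.18 and 0.39 for *AHA4*, and neither passed in any of these fits.

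*AHA11*, a pump found in several organs, had the opposite sign to the 3 genes that rose. It had 18.9, 19.3 and 19.4 FPKM in WT and 18.3, 16.2 and 17.3 FPKM in *CEPDL2ox*, so that every *CEPDL2ox* library was below every WT library. The log2 fold change was -0.14 (95% interval -0.35 to 0.06, adjusted p = 0.367 from limma), which did not pass the test. *AHA10*, a pump of the seed coat, stood between 0.754 and 1.62 FPKM in all libraries with full overlap, which is about 11 to 23 reads. Its log2 fold change was -0.04 (95% interval -0.64 to 0.56, adjusted p = 0.942 from limma), and its sign changed between fits that left out 1 library (-0.22 to 0.07). Without WT replicate 1, it was -0.12 for *AHA10* and -0.16 for *AHA11* (adjusted p = 0.821 and 0.459 from limma). *AHA9*, known from anthers, was under the limit of 1 FPKM and was not tested. It had 0.328, 0.361 and 0.330 FPKM in WT and 0.544, 0.412 and 0.504 FPKM in *CEPDL2ox*, which is about 6 to 10 reads per library. The values of both genes thus carry a large counting error. Of the 2 remaining genes of the family, *AHA5* had means of 5.04 and 4.68 FPKM (log2 fold change -0.08, adjusted p = 0.807 from limma), and *AHA6*, a pollen pump, was listed at 0 in all 6 libraries.

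**Figure D2:**
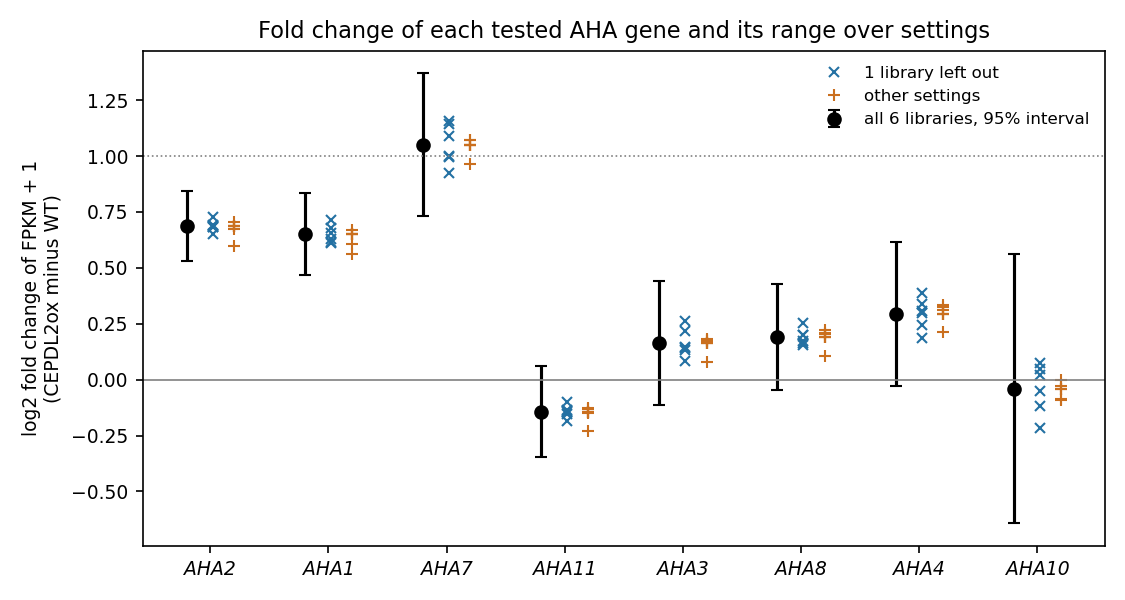
Log2 fold change of FPKM + 1 (*CEPDL2ox* minus WT) of the 8 tested *AHA* genes, as black points with 95% intervals from limma over all 6 libraries, with blue crosses for fits that leave out 1 library and orange pluses for the other settings. *AHA2*, *AHA1* and *AHA7* stay above 0.5 in every fit and the dotted line marks the fold threshold of 1, which *AHA7* straddles.

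The levels of the 9 genes differed widely, and their order was the same in both groups. By the mean over the 6 libraries it ran *AHA2* (429 FPKM), *AHA1* (256 FPKM), *AHA7* (51.9 FPKM), *AHA11* (18.2 FPKM), *AHA3* (15.7 FPKM), *AHA8* (11.8 FPKM), *AHA4* (8.06 FPKM), *AHA10* (1.11 FPKM) and *AHA9* (0.413 FPKM). Neighbours in this order had ranges that did not overlap within a group, except *AHA11* and *AHA3* in *CEPDL2ox*. In WT roots *AHA2* and *AHA1* held 53.5% and 32.3% of the summed FPKM of the 9 genes, and in *CEPDL2ox* roots they held 54.6% and 32.2%. The share of *AHA7* was 5.47% ± 0.969 in WT and 7.23% ± 0.625 in *CEPDL2ox* (SD, n = 3), and that of *AHA11* was 3.13% ± 0.139 and 1.78% ± 0.0589 (SD, n = 3).

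The sum over the 9 genes was 619, 636 and 590.5 FPKM in the WT libraries and 990.0, 929 and 992 FPKM in the *CEPDL2ox* libraries. Every *CEPDL2ox* library was thus well above every WT library, with means of 615 ± 22.8 FPKM (SD, n = 3) and 970.4 ± 36.1 FPKM (SD, n = 3) and a ratio of 1.58. As a share of the summed FPKM of all genes, which was itself larger in *CEPDL2ox* libraries, the 9 genes held 0.0593% ± 0.00348 in WT and 0.0879% ± 0.00604 in *CEPDL2ox* (SD, n = 3), a ratio of 1.48. *AHA2* and *AHA1* carry most of this sum, so it is a measure of those genes first.

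**Figure D3:**
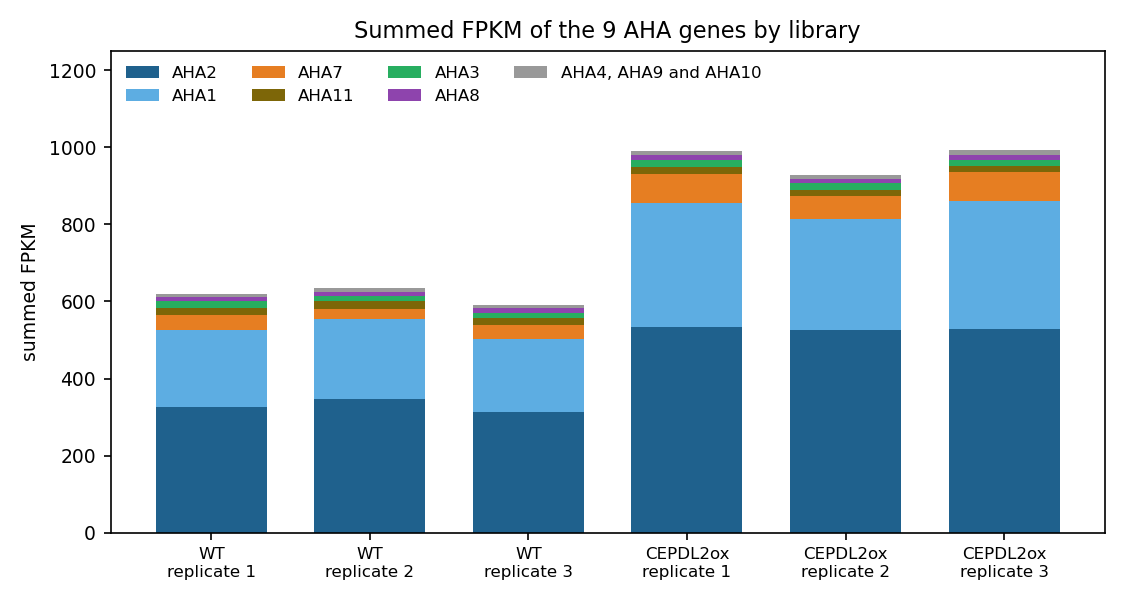
Summed FPKM of the 9 *AHA* genes in each library, stacked by gene from *AHA2* at the bottom, with *AHA4*, *AHA9* and *AHA10* drawn together. The bars reach between 590.5 and 636 FPKM in WT and between 929 and 992 FPKM in *CEPDL2ox*, and most of the added height is *AHA2* and *AHA1*.

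Ratios between members within a library do not depend on how libraries are scaled. *AHA1* stood at 0.604 ± 0.0103 of *AHA2* in WT and 0.591 ± 0.0427 in *CEPDL2ox* (SD, n = 3), a log2 difference of -0.03 (exact two-sided permutation test, p = 0.9). *AHA7* stood at 0.102 ± 0.0198 of *AHA2* in WT and 0.133 ± 0.0155 in *CEPDL2ox* (SD, n = 3), a log2 difference of 0.39 with overlapping groups (exact permutation test, p = 0.2, adjusted over 6 ratios 0.24). *AHA2* was 17.1 ± 0.897 times *AHA11* in WT and 30.7 ± 1.67 times in *CEPDL2ox* (SD, n = 3). The 6 libraries separated fully by this last ratio (log2 difference 0.84, exact permutation test, p = 0.1, adjusted over 6 ratios 0.15). They also separated fully by *AHA1* over *AHA11*, *AHA7* over *AHA11* and *AHA7* over *AHA1*, with log2 differences of 0.81, 1.23 and 0.42 (exact permutation test, p = 0.1 each, adjusted 0.15). Full separation by the ratios over *AHA11* was fixed by the single genes. *AHA1*, *AHA2* and *AHA7* were each higher in every *CEPDL2ox* library, and *AHA11* was lower in every one. None of the 6 ratios could pass the threshold with 3 libraries against 3.

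Over the 6 libraries, which share the group difference, Pearson's r of log2(FPKM + 1) was 0.98 between *AHA1* and *AHA2*, 0.95 between *AHA1* and *AHA7*, 0.92 between *AHA2* and *AHA7* and -0.81 between *AHA2* and *AHA11*. The 5 genes most like *AHA2* by this measure were AT3G10320 (0.9984), AT5G10210 (0.9975), AT1G71870 (0.9969), AT3G28510 (0.9955) and the glutathione S-transferase gene *GSTF14* (0.9951). Such values are common in these data, since 366 genes had an r above 0.95 with *AHA2*. Their log2 fold changes ran from 0.72 (AT3G10320) to 2.64 (AT3G28510).

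Several members overlap other genes, and the library kit does not mark strand, so reads from the overlap cannot be assigned. *AHA4* overlaps the end of *NPF2.10* on the opposite strand by 58 bases, and *AHA11* overlaps *NPF2.11* by 73 bases. *NPF2.10* had means of 13.5 and 11.9 FPKM (adjusted p = 0.383 from limma) and *NPF2.11* had means of 17.6 and 17.8 FPKM (adjusted p = 0.95 from limma) in WT and *CEPDL2ox*. Neither neighbour passed the test. *AHA7* overlaps the small gene AT3G60328 by 153 bases, and 60 of its 75-base windows also occur there. AT3G60328 was listed at 0 in all 6 libraries. *AHA9* overlaps AT1G80650 on the opposite strand by 39 bases, and this neighbour, at 7.35 to 13.0 FPKM, was far above *AHA9* in every library. *AHA8* overlaps AT3G06425 by 135 bases, with 61 of its windows also there, and *AHA7* overlaps AT3G00950 by 134 bases. The tables list no values for AT3G06425 and AT3G00950.

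Upstream of the genes, the letters TGACG, the core that TGA factors bind, were sought on both strands of the 250 bases before each annotated gene start (TAIR10.1), because glutaredoxins of this class are known to act with TGA factors. They were present for 2 of the 9 members, *AHA4* and *AHA11*. They were absent for *AHA1*, *AHA2* and *AHA7*, which rose, and also for *AHA3*, *AHA8*, *AHA9* and *AHA10*, which did not pass or were not tested. Among 32812 genes, 18.15% held the letters in the same window. A match is a description of the sequence, and a missing match says only that these letters are not in this window.

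The regulators of the pump were read against the same background, 3.71% higher and 2.00% lower over all genes tested. The 14-3-3 proteins, which bind the phosphorylated tail, had 11 genes tested, of which 0 were higher and 0 lower, with a median log2 fold change of -0.02. The most abundant of them, *GRF6*, had means of 449 and 489 FPKM (adjusted p = 0.358 from limma). Among the PP2C-D phosphatases, a group with members that act on the threonine printed above, 1 of 8 tested genes was higher and 0 lower. Their median was 0.14. That gene, *PP2C-D8* (AT4G33920), had 44.5, 45.5 and 52.2 FPKM in WT and 66.3, 67.5 and 83.2 FPKM in *CEPDL2ox*. Its groups did not overlap, and it changed by 0.59 on the log2 scale (standard error 0.11, adjusted p = 0.0249 from limma), but it stayed under 0.05 in 1 of the 6 fits that left out 1 library (without WT replicate 3). *PP2C-D8* also did not pass with no filter or with no intensity trend, and whether it acts on the pumps was not tested. The most abundant PP2C-D gene, *PP2C-D6*, had means of 86.8 and 85.2 FPKM (adjusted p = 0.855 from limma). The 6 genes of the *SAUR19* group, whose proteins inhibit phosphatases of this group, were all under the limit for testing. Of these 6, 4 were listed at 0 in every library.

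Of 16 genes for kinases, receptors, peptide ligands and interactors of the pump (among them *TMK1*, *FER*, *RALF1*, *PSY1R* and *CIPK11*), 0 were higher and 0 lower, with a median log2 fold change of -0.03. The most abundant were *PPI1*, which binds the tail, with means of 220.4 and 208 FPKM (adjusted p = 0.491 from limma), and the chaperone gene *J3*, with means of 218 and 214 FPKM (adjusted p = 0.854 from limma).

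Proton pumps of the vacuole and endomembranes were read for comparison. Of 26 tested genes for V-ATPase subunits, 1 was higher and 0 lower, with a median log2 fold change of -0.05. Over all genes tested, 3.71% were higher and 2.00% lower, so this count was near the background. The 1 that passed, *VHA-e2*, had means of 277 ± 14.3 and 365 ± 26.6 FPKM (SD, n = 3) and a log2 fold change of 0.40 (adjusted p = 0.0321 from limma), and it passed in none of the 6 fits that left out 1 library, nor with no filter or no intensity trend. The most abundant subunit gene, *VHA-c2*, had means of 481 and 571 FPKM (adjusted p = 0.0724 from limma). The 3 H+-pyrophosphatase genes had a median of -0.28 and none passed. *AVP1*, the main pump of this kind on the vacuole, had 228, 239 and 213 FPKM in WT and 188, 178 and 195 FPKM in *CEPDL2ox*. Every *CEPDL2ox* library was below every WT library, and the adjusted p was 0.0738 (limma). Groups without overlap in either direction were found for 29.9% of all genes tested. Of 13 tested Ca2+ pumps, which belong to the same P-type ATPase superfamily as the *AHA* genes, 0 were higher and 0 lower, with a median of 0.02. The most abundant of these, *ACA8*, had means of 58.8 and 55.5 FPKM (adjusted p = 0.718 from limma).

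**Figure D4:**
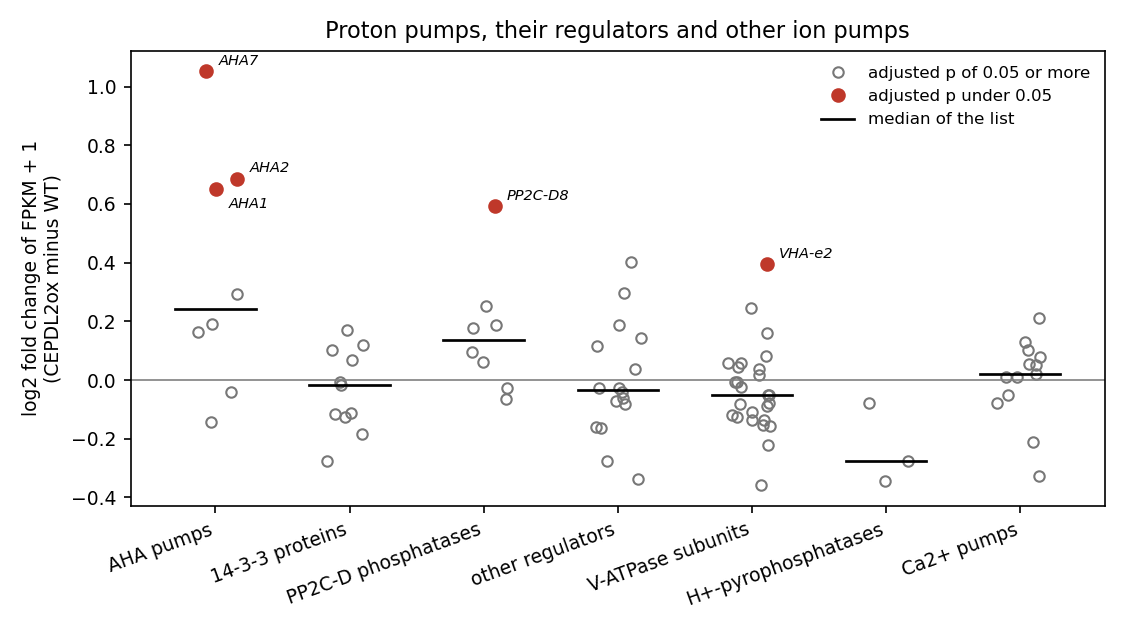
Log2 fold change of FPKM + 1 (*CEPDL2ox* minus WT) of each tested gene, grouped into *AHA* pumps, regulators and other ion pumps, with filled red points for an adjusted p under 0.05 and a bar for the median of each list. The *AHA* list has 3 filled points and a median of 0.24, and the other lists have at most 1 filled point each.

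Since *AHA* genes differ in the cells they serve, markers of those cells were read in the same libraries. Counts for all marker lists stand against 3.71% higher and 2.00% lower over all genes tested. Of 4 root hair markers, 2 were higher, *EXPA7* (log2 fold change 0.44, adjusted p = 0.0265 from limma) and *RHD6* (log2 fold change 0.73, adjusted p = 0.0341 from limma), and *COBL9* and *LRX1* did not pass. The summed level of the 4 markers was between 106 and 116 FPKM in WT and between 131 and 160.3 FPKM in *CEPDL2ox*. It thus showed a difference between the groups, as *AHA1*, *AHA2* and *AHA7* also did. The part of this summed level in the change of the pumps was not tested. Leaving out 1 library at a time, *EXPA7* passed in 1 and *RHD6* in 2 of the 6 fits. Neither passed with no filter, with no intensity trend or with libraries scaled to the same summed FPKM.

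Of 3 markers of phloem cells, *SUC2*, the sucrose carrier of companion cells, was higher (means 28.7 and 45.7 FPKM, log2 fold change 0.67, adjusted p = 0.0387 from limma), and it passed in 0 of the 6 fits that left out 1 library. *SUC2* also did not pass with no filter, with no intensity trend or with libraries scaled to the same summed FPKM. The summed level of the 3 markers was between 60.9 and 76.1 FPKM in WT and between 84.1 and 95.9 FPKM in *CEPDL2ox*. Its part in the *AHA* values was not tested. The 4 endodermis markers had summed levels of 183 to 237 FPKM in WT and 203 to 221 FPKM in *CEPDL2ox*, and 0 of 4 passed (*CASP1*, the most abundant, had means of 123 and 124 FPKM). Of the 4 root markers, which include the root beta-glucosidase *PYK10* (means 2548 and 1789 FPKM, adjusted p = 0.111 from limma), 1 passed (the nitrate transporter *NPF7.3*, log2 fold change 1.67, adjusted p = 0.000298 from limma). Among markers of tissues outside the root, the guard cell genes *FAMA*, *MYB60* and *SLAC1* were under 1 FPKM in every library, and *ICE1*, which is not limited to guard cells, had means of 9.42 and 7.71 FPKM. Of the seed coat genes, *TT2* had 0.438, 0.207 and 0.441 FPKM in WT and was listed at 0 in *CEPDL2ox*, *BAN* was at most 0.190 FPKM and *TT12* was at 0 in all 6. The pollen gene *MGH3* was also at 0 in all 6. The pollen genes *VGD1* and *VGDH1* were at 0 except in *CEPDL2ox* replicate 1, at 0.898 and 1.16 FPKM, and *AHA8* in that library was 13.3 FPKM, next to 13.1 FPKM in replicate 3.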

How the data were processed

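RNA from roots of WT and *CEPDL2ox* plants (3 libraries each) was sequenced as single-end 75-bp reads from TruSeq v2 libraries. The authors mapped the reads to TAIR10 in the illumina BaseSpace Sequence Hub and deposited FPKM per gene in a table for each library. The quantification tool and the scaling of libraries are not given in the sources used here. All 6 tables were used, grouped by sample label.

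FPKM was transformed as log2(FPKM + 1). Genes whose mean over the 6 libraries reached 1 FPKM (19597) were fitted in limma 3.58.1 (lmFit, eBayes with an intensity trend, R 4.3.3) and p-values were adjusted by Benjamini-Hochberg over all of them. The thresholds of an adjusted p under 0.05 and an absolute log2 fold change above 1 follow the study's methods. The fit was tested on simulated data. Single values were compared by exact two-sided permutation tests (scipy 1.17.1). Depth was estimated from genes whose value corresponds to 1 read, and reads per gene follow from it approximately. Coding sequences were aligned with mafft 7.526. Gene positions are those of the deposited tables (TAIR10), and sequences and gene models are those of RefSeq TAIR10.1.

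The members and all lists were chosen with earlier results of these data known. Genes were named by rule: every *AHA* gene, *CEPDL2*, of each other list the genes with an adjusted p under 0.05 (at most 5) and the most abundant one, and the 5 genes most correlated with the most abundant *AHA* gene. Genes that overlap a member, and list members named as examples, were chosen for their position or role. Alternatives were a pseudocount of 0.1, no filter, a minimum mean of 5 FPKM, median of ratios, quantile normalization, the same summed FPKM, no intensity trend, a block for the replicate number of the labels, and leaving out each library in turn.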

Additional observations from a re-analysis of the deposited data

How the results depend on the processing

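Over 14 alternative settings, *AHA1* had log2 fold changes of 0.56 to 0.71 and *AHA2* of 0.60 to 0.73, with an adjusted p of at most 0.0456 and 0.0206 (limma). *AHA7* had 0.92 to 1.16, under 0.05 in 13 of 14 and above 1 in 11 of 14. The count of *AHA* genes under 0.05 stayed at 3, except for 2 with no filter on low values. Over all genes, 228 were higher and 83 lower by adjusted p and fold, and 728 and 392 by adjusted p alone. With no filter, in which more genes were tested, these counts were 87, 24, 183 and 85. With libraries scaled to the same summed FPKM, 125 genes were lower by both rules, and by adjusted p alone 552 were higher and 711 lower, so that 43.71% of the called genes were higher in place of 65.0%. With no intensity trend, 211 were lower by adjusted p alone. Leaving out 1 library gave 154 to 206 higher and 49 to 77 lower genes by both rules (49 without WT replicate 2, 54 and 53 without *CEPDL2ox* replicates 1 and 3), and 259 to 434 higher and 99 to 176 lower by adjusted p alone. The median log2 fold change of all genes tested was -0.11 with the same summed FPKM and -0.03 in the main fit. Fits that left out 1 library had fewer libraries, and the cause of these shifts was not tested.

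Replicate numbers did not pair the libraries (correlations of same-numbered deviations -0.03, 0.02 and 0.00). With the number as a replicate block, 220 genes were higher and 98 lower by both rules, 560 and 280 by adjusted p alone, and 3 *AHA* genes passed (adjusted p = 0.0198 for *AHA1*, 0.0113 for *AHA2* and 0.00327 for *AHA7*, limma). Of the other named genes, *VHA-e2* lost its call under the block. Depth limits *AHA9* and *AHA10*, which rest on about 6 to 23 reads per library.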
